A study of Rattus norvegicus with 6 samples.

Results

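Complex I of the respiratory chain, the NADH dehydrogenase, was examined in rat gastrocnemius muscle through the genes whose symbols start with Nduf. They were taken from the deposited array values by the gene symbol of the platform annotation, from rows with a single gene, and a gene with several rows was represented by its brightest row, averaged over all arrays. The rule found 37 genes of the 14506 genes measured, from 41 rows. These were 32 structural subunits, the 3 assembly factors Ndufaf1, Ndufaf3 and Ndufaf4, and a pair of genes kept apart from both. Of that pair, Ndufa4 carries the family name but is now known as a subunit of complex IV, and Ndufs6-ps1 is listed as a pseudogene in RefSeq. RefSeq lists 56 protein-coding Nduf genes, of which 20 had no single-gene row, among them the assembly factors Ndufaf2, Ndufaf5, Ndufaf6, Ndufaf7 and Ndufaf8. They were not analysed here, nor were the complex I subunits encoded in mitochondrial DNA.

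The muscles came from male Sprague-Dawley rats with diet-induced obesity, with no genotype given beyond the strain. Rats were 12 weeks old when assigned to a diet, ate it freely for 8 weeks and were 20 weeks old at sampling. In the leucine group the protein share of energy was made up of 7.1% casein and 2.9% free leucine. In the dairy group it came from skim milk powder as complete dairy protein, and in the casein group, the control, from casein alone. Every diet was high in fat and sucrose, held 4.6 kcal per gram and drew 10% of its energy from protein, so that no lean or low-fat animals are included. The study fed 4 rats on each diet by its design text, and 6 arrays, 2 for each diet, were analysed. The labels do not say that each array came from a different rat, so p-values measure only the spread between these samples, which may be technical. The labels name gastrocnemius as the tissue, while the protocol texts mention liver in storage and RNA extraction.

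Complex I takes electrons from NADH, passes them along iron-sulfur clusters to ubiquinone and uses the energy to pump protons out of the mitochondrial matrix. Its arm in the matrix holds the module that oxidises NADH and the module that reduces quinone, and its arm in the membrane has a proximal and a distal pumping part. Assembly factors build the modules and join them, and are absent from the finished enzyme. Slow, oxidative muscle fibres hold more mitochondria than fast glycolytic ones.

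Values are log2 signals, so a difference of 1 is a doubling. All 37 genes had mean signals above that of the median gene. The 32 subunits had a median signal of 8.25, at percentile 95.02 of all genes, and the 3 assembly factors one of 7.16. Signals of different probe sets depend on the probes as well as on the transcript, so the following values place genes on the array only. The highest subunit signals were 10.82 for Ndufb5, 10.64 for the iron-sulfur core subunit Ndufs1, 9.96 for Ndufs7, 9.89 for Ndufv1, which binds NADH, and 9.55 for Ndufb9. The lowest were 4.96 for Ndufa2, 6.09 for Ndufa7, 6.20 for Ndufa10, 6.85 for Ndufs5 and 6.90 for Ndufa1. Fast fibre markers, which define the bulk of the rat gastrocnemius, were detected with a median signal of 12.4 over 11 genes, at the 99.9th percentile. Their median was 12.3 to 12.8 on the single arrays, so these markers matched the tissue label on each array. They do not tell gastrocnemius from other fast muscles, and other markers set 1 array apart, as given next.

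The second casein array stood apart from the other 5 before any diet was compared. Its mean correlation with the other arrays was 0.974, against 0.985 to 0.988 for the rest. Slow muscle fibre markers, such as the slow myosin and troponin genes, had a summed linear signal of 10579 and 11773 on the leucine arrays, 7904 and 8822 on the dairy arrays, and 10547 and 673 on the casein arrays. All 8 of them were lowest on the second casein array. Hepatocyte markers summed to 134 and 1285 on the leucine arrays, 441 and 154 on the dairy arrays, and 947 and 4317 on the casein arrays, and all 12 were highest on the second casein array. Macrophage markers summed to 222 and 203 on the leucine arrays, 366 and 364 on the dairy arrays, and 224 and 557 on the casein arrays. These are whole-tissue samples, so that fewer cells of a type and less RNA per cell cannot be told apart. The part of these markers in the complex I values was not tested. Where genes or lists are described, the difference from casein is also given without that array.

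**Figure D1:**
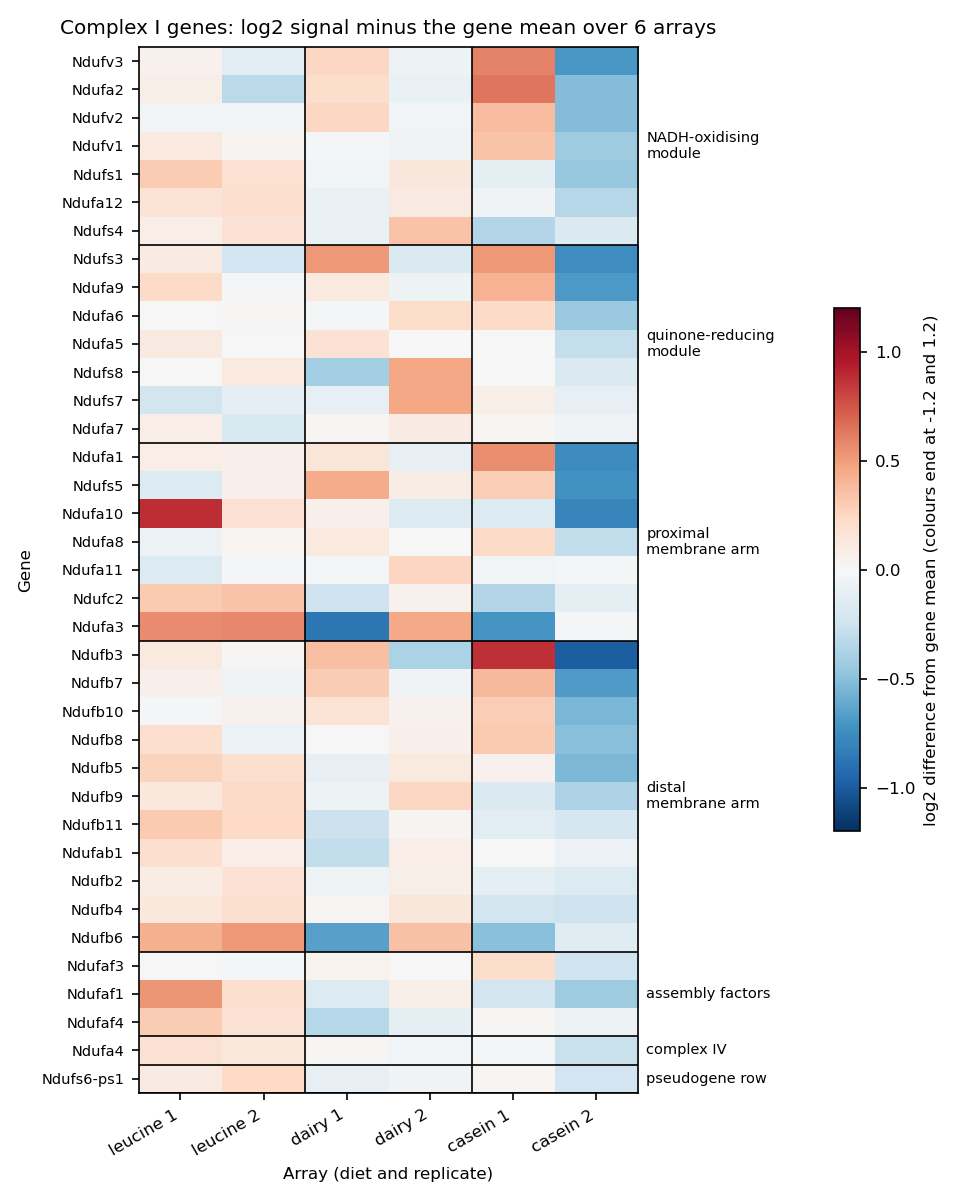
Deviation of each of the 37 genes (rows, grouped by role) from its own mean over the 6 arrays, in log2 units, with leucine, dairy and casein arrays from left to right. The second casein column holds the lowest value of 26 genes.

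Complex I signal was lowest on that array. It held the lowest value of the 6 arrays for 22 of the 32 subunits, or 68.8%, where 22.3% of all genes with varying values were lowest there and 33.4% of those above the median gene. For no subunit was it the highest. The first casein array was the highest for 12 of 32 subunits, or 37.5%, where 15.1% of all genes were highest on it. The median deviation of the subunits from their own means was 0.10 and 0.05 on the leucine arrays, -0.01 and 0.06 on the dairy arrays, and 0.03 and -0.40 on the casein arrays. The casein arrays therefore lay on both sides of the other diets for many subunits, and the spread between them enters each comparison with casein.

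The NADH-oxidising module, which holds the flavin site, showed the widest gap between the casein arrays, with a median deviation of 0.34 on the first and -0.46 on the second. The quinone-reducing module stood at 0.07 and -0.28, the proximal membrane arm at -0.04 and -0.30, and the distal membrane arm at 0.00 and -0.37. Every module was thus low on the second casein array, and the NADH-oxidising module was also high on the first.

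Ndufb3, a small subunit of the distal arm, had 8.50 and 8.40 on the leucine arrays, 8.74 and 8.01 on the dairy arrays, and 9.26 and 7.40 on the casein arrays. Its casein values were the highest and the lowest of the 6. Ndufs3, a core subunit of the quinone module, had 9.21 and 8.88 on leucine, 9.63 and 8.94 on dairy, and 9.63 and 8.37 on casein. Ndufv3, an accessory subunit of the NADH module, had 7.67 and 7.48 on leucine, 7.86 and 7.55 on dairy, and 8.21 and 6.92 on casein. Ndufa1, an X-linked subunit of the proximal arm, had 6.99 and 6.97 on leucine, 7.05 and 6.81 on dairy, and 7.46 and 6.15 on casein. In each of these genes the leucine and dairy values fell between the values of the casein arrays, or level with the upper one.

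The second casein array minus the first gave -1.86 for Ndufb3, -1.32 for Ndufa1, -1.29 for Ndufv3, -1.26 for Ndufs3, -1.16 for Ndufa2, -1.11 for Ndufa9, -1.07 for Ndufb7 and -1.01 for Ndufs5. These 8 subunits differed by over 2-fold between the arrays of one diet. Over all 32 subunits the median of this difference was -0.43, with 27 lower on the second array and 17 apart by over 0.5. On the dairy diet the median was 0.09, with 6 apart by over 0.5, and on the leucine diet -0.01, with 1 apart by over 0.5. The median size of the difference was 0.10 for leucine, 0.28 for dairy and 0.55 for casein, where over all genes it was 0.12, 0.12 and 0.16. The leucine arrays agreed about as closely for complex I as for the average gene. The dairy arrays agreed less closely for complex I than for the average gene, and the casein arrays least of all.

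**Figure D2:**
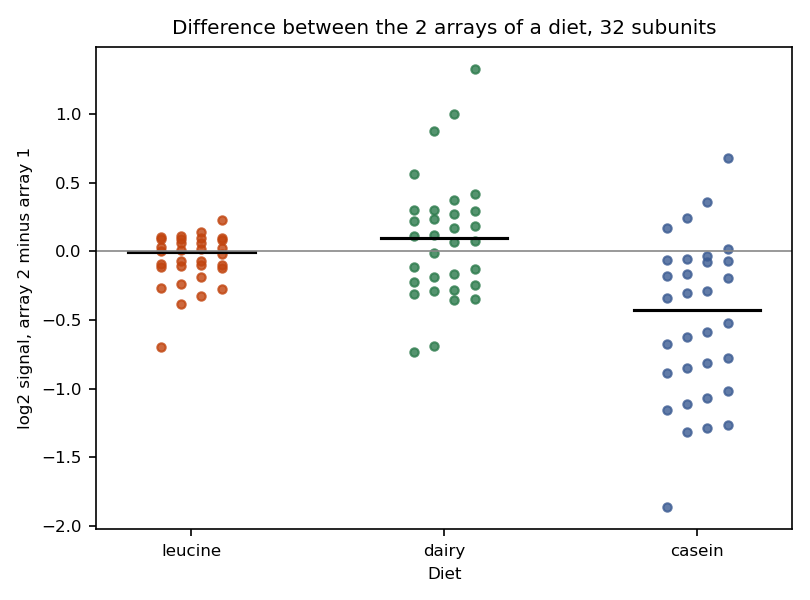
Difference in log2 signal between the arrays of a diet (the second minus the first) for each of the 32 subunits, with a bar at the median. Medians are -0.01 for leucine, 0.09 for dairy and -0.43 for casein, where points reach from -1.86 to 0.68.

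A few subunits ran the other way. Ndufa3, an accessory subunit of the proximal arm, had 8.20 and 8.21 on leucine, 6.76 and 8.09 on dairy, and 6.92 and 7.60 on casein. Ndufb6, of the distal arm, had 7.59 and 7.69 on leucine, 6.51 and 7.52 on dairy, and 6.66 and 7.02 on casein. Both were lowest on the first dairy array and next lowest on the first casein array. Ndufc2 and Ndufs4 were also higher on the second casein array than on the first, by 0.24 and 0.17.

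The first comparison set leucine supplementation against the casein control. No complex I gene passed an adjusted p of 0.05 in limma, and none of the 14506 genes did, a share of 0%, with a lowest adjusted p of 0.353 in limma. Without adjustment, p was under 0.05 for 10 of the 37 genes with higher values on leucine and for 0 with lower values, beside 4.76% of all genes higher and 4.85% lower. These 10 were the subunits Ndufb4, Ndufc2, Ndufb11, Ndufs1, Ndufb2, Ndufb9, Ndufa10 and Ndufa12 with Ndufaf1 and Ndufa4. Both leucine values lay above both casein values for 17 of the 37 genes, beside 15.9% of all genes, and below them for 1, Ndufs7, beside 15.6%.

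Among the subunits 28 of 32 were higher on leucine, with a median difference of 0.17, where 49.0% of all genes were higher with a median of 0.00. Of the genes above the median gene 57.9% were higher, with a median of 0.05. Without the second casein array 15 of 32 subunits were higher and 17 lower, with a median of -0.06. Of the genes above the median gene 52.6% were higher there, with a median of 0.01. An unadjusted p under 0.05 then remained with 2 higher subunits, Ndufb4 and Ndufc2, and went to 4 lower ones, Ndufv1, Ndufa1, Ndufb10 and Ndufv3, beside 6.31% of all genes higher and 6.96% lower. With 1 casein array left, the spread behind these p-values comes from the leucine and dairy arrays alone, and casein is assumed to vary like them. Without the first casein array the median was 0.51. The direction of the subunits as a group thus depended on 1 array. Fibroblast markers summed to 821 and 733 on the leucine arrays, against 2097 and 1778 on the casein arrays. All 6 were lower on leucine, with a median of -0.89 with and without the second casein array. Fast fibre markers were lower on leucine for 10 of 11 genes, with a median of -0.11. Without the second casein array 11 of 11 were lower, with a median of -0.33. Slow fibre markers were higher on leucine for 8 of 8 genes, with a median of 2.21. Without that array 3 of 8 were higher, with a median of -0.11. The part of any of these markers in the subunit values was not tested.

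**Figure D3:**
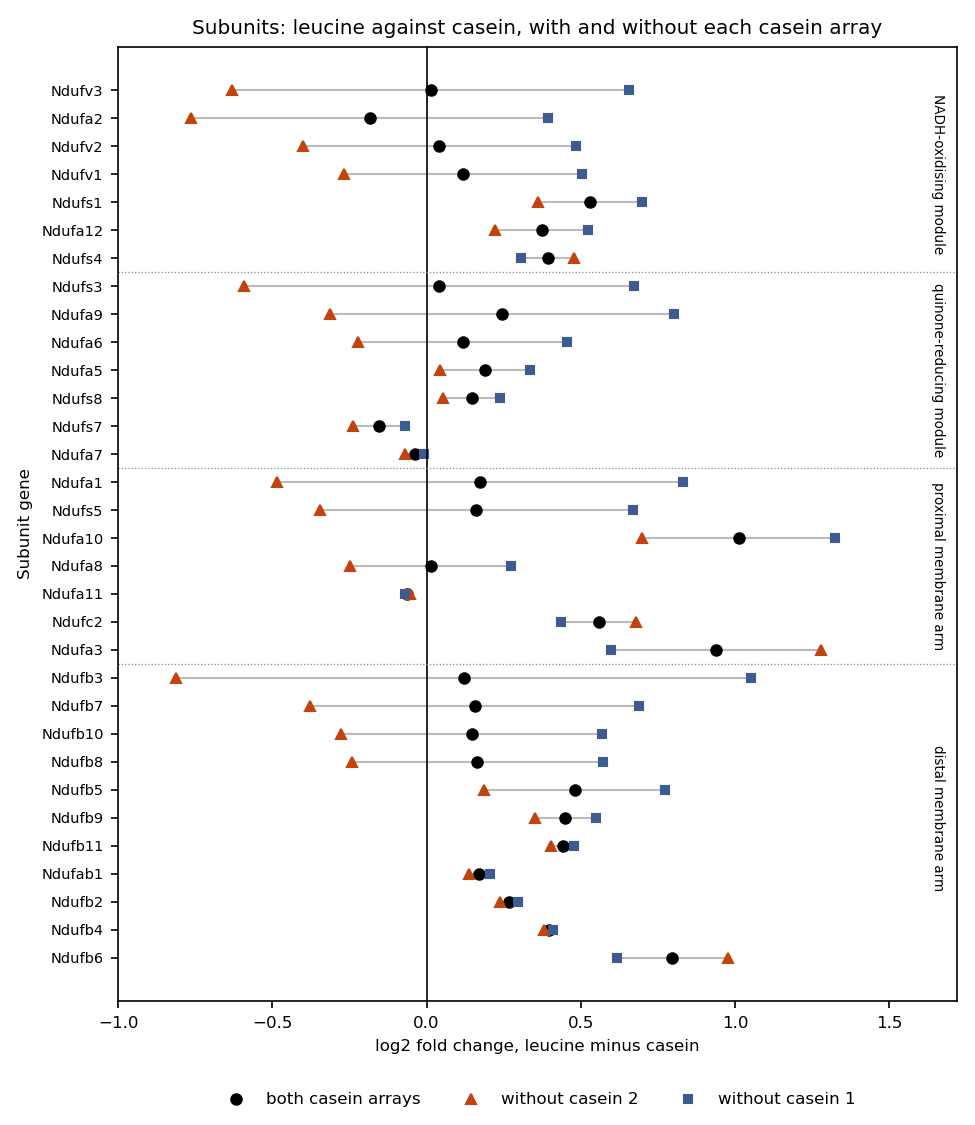
Leucine minus casein log2 difference of each of the 32 subunits (rows, grouped by module) with both casein arrays (circles), without the second (triangles) and without the first (squares). The medians are 0.17 with both, -0.06 without the second casein array and 0.51 without the first, and most rows with a negative triangle have a positive square.

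By module, 6 of 7 NADH-oxidising subunits were higher on leucine with a median of 0.12, and -0.27 without the second casein array. Of the quinone-reducing subunits 5 of 7 were higher with a median of 0.12, and -0.22 without that array, and none had an unadjusted p under 0.05. Of the proximal arm 6 of 7 were higher with a median of 0.17, and -0.05 without it. All 11 measured subunits of the distal arm were higher with a median of 0.27, and 7 of 11 with a median of 0.19 without it. The distal arm was the 1 module whose median stayed above 0 without that array.

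Ndufb4, an accessory subunit of the distal arm, had the lowest unadjusted p of the family. Its signals were 7.92 and 7.98 on the leucine arrays, 7.81 and 7.92 on the dairy arrays, and 7.57 and 7.54 on the casein arrays. Both casein values were below every value of the other diets, which overlapped. Leucine minus casein was 0.40 ± 0.07 (SE, n = 2 each, adjusted p = 0.353 in limma), a fold of 1.32 with a 95% interval of 0.21 to 0.58 in log2 units. It was 0.38 without the second casein array and 0.50 in the second row of the gene. RefSeq lists close copies of Ndufb4, such as Ndufb4l1, whose transcripts the probes may also bind. It also lists Ndufb3l1 and Ndufb11b, named after Ndufb3 and Ndufb11, for which the same may hold.

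Other subunits of the distal arm also had an unadjusted p under 0.05. Ndufb11, an X-linked subunit, had 8.41 and 8.34 on leucine, 7.84 and 8.13 on dairy, and 7.97 and 7.90 on casein. Both leucine values stood above every other array, by 0.44 ± 0.12 over casein (SE, n = 2 each, adjusted p = 0.414 in limma). Ndufb2 had 9.27 and 9.35 on leucine, 9.13 and 9.25 on dairy, and 9.07 and 9.02 on casein, with a difference from casein of 0.27 ± 0.08 (SE, adjusted p = 0.431 in limma). Its leucine values were above all others by a narrow margin. Ndufb9 had 9.67 and 9.78 on leucine, 9.49 and 9.79 on dairy, and 9.37 and 9.18 on casein, where leucine minus casein was 0.45 ± 0.14. Leucine and dairy overlapped in this gene and both lay above casein. Without the second casein array these differences were 0.40 for Ndufb11, 0.24 for Ndufb2 and 0.35 for Ndufb9.

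In the proximal arm, Ndufc2 had 9.57 and 9.59 on the leucine arrays, 8.998 and 9.30 on the dairy arrays, and 8.90 and 9.14 on the casein arrays. Leucine was above both other diets, which overlapped, and the difference from casein was 0.56 ± 0.14 (SE, n = 2 each, adjusted p = 0.412 in limma), or 0.68 without the second casein array. Ndufa10, related in sequence to nucleoside kinases, had 7.08 and 6.38 on leucine, 6.26 and 6.04 on dairy, and 6.04 and 5.41 on casein. Leucine minus casein was 1.01 ± 0.33, a fold of 2.02, and 0.70 without the second casein array. The leucine arrays lay above the rest and were themselves 0.70 apart. A further row, annotated to both Ndufa10 and Ndufa10l1 and therefore outside the 37 genes, had signals from 9.76 to 10.19 and a leucine minus casein difference of 0.25. Ndufa3 and Ndufb6, described above, gave 0.94 ± 0.51 and 0.80 ± 0.37, with leucine above both other diets and unadjusted p of 0.133 and 0.0902 in limma. Without the second casein array they gave 1.28 and 0.98.

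In the NADH module, Ndufs1, the core subunit with several iron-sulfur clusters, had 10.94 and 10.82 on leucine, 10.60 and 10.77 on dairy, and 10.52 and 10.18 on casein. The 3 diets did not overlap and stood in the order casein, dairy, leucine. Leucine minus casein was 0.53 ± 0.15 (SE, n = 2 each, adjusted p = 0.414 in limma), a fold of 1.44, and 0.36 without the second casein array. Ndufa12 had 8.77 and 8.80 on leucine, 8.52 and 8.71 on dairy, and 8.56 and 8.26 on casein, a difference of 0.37 ± 0.13 from casein, or 0.22 without the second casein array. Ndufv1 had 10.01 and 9.92 on leucine, 9.86 and 9.85 on dairy, and 10.23 and 9.46 on casein, and gave 0.12 ± 0.27 with all arrays and -0.27 without the second casein array. For Ndufv1 the sign thus rested on that array.

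In the quinone module the differences from casein were small beside their errors. Ndufs7, which carries the iron-sulfur cluster nearest to quinone, had 9.75 and 9.84 on leucine, 9.86 and 10.43 on dairy, and 10.03 and 9.86 on casein, and leucine minus casein was -0.15 ± 0.21, or -0.24 without the second casein array. It was the subunit whose leucine values lay below both other diets. Ndufs8, its neighbour in the electron path, had 8.44 and 8.55 on leucine, 8.02 and 8.89 on dairy, and 8.44 and 8.25 on casein, a difference of 0.15 ± 0.31, or 0.05 without the second casein array.

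**Figure D4:**
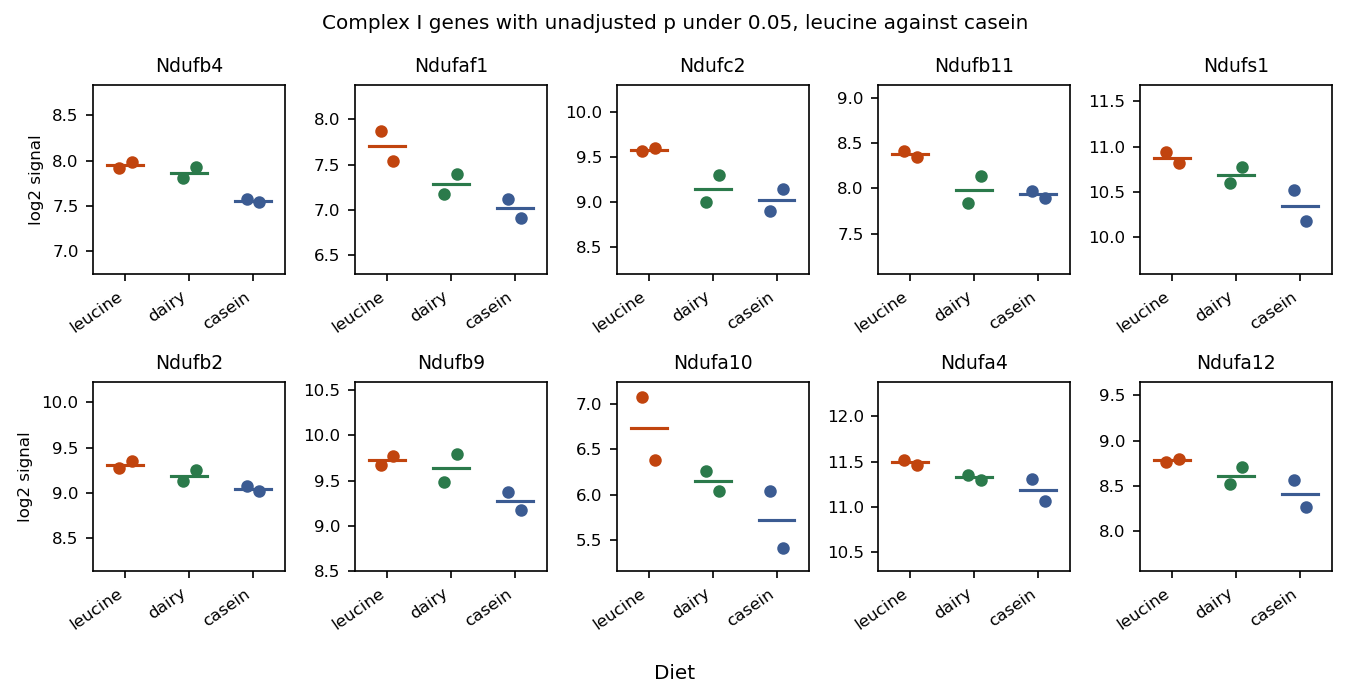
Log2 signal of the 10 genes with an unadjusted p under 0.05 for leucine against casein, a panel each, with the leucine, dairy and casein arrays as points from left to right and a bar at the mean of each diet. Every panel spans the same range of log2 units around its own gene, and both leucine points lie above both casein points in all 10.

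The assembly factors were considered apart. Ndufaf1, which works with Ecsit, Acad9 and Tmem126b on the membrane arm, had 7.87 and 7.54 on the leucine arrays, 7.17 and 7.40 on the dairy arrays, and 7.12 and 6.91 on the casein arrays. Its diets did not overlap, and leucine minus casein was 0.69 ± 0.16 (SE, n = 2 each, adjusted p = 0.397 in limma), a fold of 1.61, or 0.59 without the second casein array. Ndufaf4, which acts with Ndufaf3 on the quinone module, had 7.47 and 7.35 on leucine, 6.82 and 7.06 on dairy, and 7.18 and 7.10 on casein. Leucine was highest and dairy lowest with no overlap, and leucine minus casein was 0.27 ± 0.11, or 0.23 without the second casein array. Its partner Ndufaf3 had 6.19 and 6.17 on leucine, 6.23 and 6.20 on dairy, and 6.41 and 5.95 on casein. Here the leucine and dairy values lay between the casein values, with a difference of 0.00 ± 0.16 from casein, or -0.23 without the second casein array.

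Ndufa4, the complex IV subunit, had 11.52 and 11.46 on leucine, 11.35 and 11.30 on dairy, and 11.31 and 11.06 on casein, a difference of 0.30 ± 0.10 between leucine and casein. It was 0.18 without the second casein array. The Ndufs6-ps1 row had 8.39 and 8.52 on leucine, 8.19 and 8.24 on dairy, and 8.30 and 8.05 on casein, and leucine minus casein was 0.28 ± 0.11, or 0.15 without that array. Leucine was above both other diets in each of them.

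Other genes of the pathway carried the same limit. Of 9 measured assembly genes without the Nduf name 8 were higher on leucine than on casein, with a median of 0.46 that was 0.01 without the second casein array. Aifm1, which supports the import of complex I subunits with its partner Chchd4, had 7.73 and 7.75 on leucine, 6.997 and 7.15 on dairy, and 7.16 and 6.51 on casein, and leucine minus casein was 0.91 ± 0.23, with an unadjusted p of 0.0153 in limma, or 0.58 without the second casein array. Acad9, the partner of Ndufaf1, had 7.03 and 7.14 on leucine, 6.88 and 6.88 on dairy, and 7.43 and 5.81 on casein, so that its casein values were the highest and the lowest. Of 43 genes of complexes II to V 37 were higher on leucine, with a median of 0.25, and 11 of them had an unadjusted p under 0.05, beside 4.76% of all genes. Without the second casein array 26 were higher and 17 lower, with a median of 0.04. These 43 genes were matched by the start of their symbols, so not all need be subunits. Of the 43, 39 had a mean signal above that of the median gene, and Cox6c-ps1, named as a pseudogene, had one of 2.75. Of 7 measured regulators of mitochondrial genes 5 were higher, with a median of 0.30, and 3 of 7 with a median of -0.03 without the second casein array. Gabpa, which binds ETS sites, had 6.30 and 6.14 on leucine, 6.40 and 6.22 on dairy, and 5.99 and 5.87 on casein, a difference of 0.29 ± 0.10 between leucine and casein, or 0.23 without that array.

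The second comparison set the dairy diet against casein and shares the casein arrays with the first. No complex I gene and none of all genes, 0%, passed an adjusted p of 0.05 in limma, and the lowest adjusted p was 0.833 in limma. Without adjustment, p was under 0.05 for 1 higher gene, Ndufb4, and for 0 lower ones, beside 2.49% and 2.31% of all genes. Dairy values lay above both casein values for 6 of 37 genes, beside 11.5% of all genes, and below them for 1, Ndufaf4, beside 11.7%.

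Among the subunits 31 of 32 were higher on dairy with a median of 0.17, the exception being Ndufab1, the acyl carrier protein, at -0.08. Of all genes 51.1% were higher with a median of 0.00, and of those above the median gene 70.5% with a median of 0.10. Without the second casein array 16 of 32 subunits were higher and 16 lower, with a median of -0.01, and an unadjusted p under 0.05 went to Ndufb4, higher, and to Ndufv1 and Ndufa1, lower, beside 5.14% of all genes higher and 5.09% lower. The spread again comes from the leucine and dairy arrays alone. Without the first casein array the median was 0.43. Of the genes above the median gene 62.8% were higher on dairy without the second casein array, with a median of 0.06.

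Ndufb4, Ndufb9, Ndufs1, Ndufs4 and Ndufb2 kept their sign in this comparison without the second casein array. Dairy minus casein was 0.31 ± 0.07 for Ndufb4 (SE, n = 2 each, unadjusted p = 0.00933 in limma), or 0.30 without that array. It was 0.37 ± 0.14 for Ndufb9 and 0.27 without it, and 0.34 ± 0.15 for Ndufs1 and 0.17 without it. For Ndufb2 it was 0.15 ± 0.08 and 0.12 without it. Ndufs4, whose loss causes a Leigh-like disease in mice, had 9.09 and 9.19 on leucine, 8.94 and 9.36 on dairy, and 8.66 and 8.83 on casein. Leucine and dairy overlapped above casein, and dairy minus casein was 0.40 ± 0.17, or 0.48 without that array. The assembly factors gave 0.27 ± 0.16 for Ndufaf1, 0.04 ± 0.16 for Ndufaf3 and -0.20 ± 0.11 for Ndufaf4. Without the second casein array they gave 0.17 for Ndufaf1, -0.19 for Ndufaf3 and -0.24 for Ndufaf4. Of 9 other assembly genes 8 were higher on dairy with a median of 0.18, and 3 of 9 with a median of -0.06 without that array. Of 43 genes of complexes II to V 39 were higher with a median of 0.24, and 25 with a median of 0.03 without it. Of 7 regulators 6 were higher with a median of 0.06, and 5 with a median of 0.03 without it. All genes gave 51.1% higher with all arrays, as above.

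The third comparison set leucine against dairy, and does not use the casein arrays except for the spread. No complex I gene and none of all genes, 0%, passed an adjusted p of 0.05 in limma. The lowest adjusted p was 0.514 over all genes and 0.619 over complex I in limma. Without adjustment, p was under 0.05 for 3 higher genes, Ndufaf4, Ndufb11 and Ndufc2, and for 0 lower ones, beside 2.25% and 3.45% of all genes. Leucine values lay above both dairy values for 14 of 37 genes, beside 13.4% of all genes, and below them for 4, beside 14.9%.

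Among the subunits 18 of 32 were higher on leucine than on dairy and 14 lower, with a median of 0.05, where 49.1% of all genes were higher. Of the genes above the median gene 43.1% were higher, with a median of -0.03. The modules differed in their medians, with 0.08 in the distal arm, where 9 of 11 were higher, 0.05 in the proximal arm, -0.01 in the NADH module and -0.09 in the quinone module, where 2 of 7 were higher. The difference for Ndufaf4 was 0.47 ± 0.11 (SE, n = 2 each, adjusted p = 0.619 in limma). It was 0.39 ± 0.12 for Ndufb11, 0.43 ± 0.14 for Ndufc2 and 0.42 ± 0.16 for Ndufaf1, while Ndufaf3 gave -0.04 ± 0.16. The Ndufs6-ps1 row gave 0.24 ± 0.11 and Ndufa10 0.59 ± 0.33, or 0.18 in the row shared with Ndufa10l1. Fibroblast markers summed to 821 and 733 on leucine and 2754 and 1840 on dairy in linear signal, and adipocyte markers to 217 and 199 on leucine and 452 and 231 on dairy. Of the fast fibre markers 0 of 11 were higher on leucine than on dairy, with a median of -0.27. Of the slow fibre markers 7 of 8 were higher, with a median of 0.44. The part of any of these markers in the complex I differences was not tested.

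Promoters are shown for genes described above, as a description of their sequence. The 37 genes lie on 14 chromosomes. The part of promoter motifs in the low values on the second casein array was not tested. RefSeq promoters of the GRCr8 build, from 250 bases before to 50 after the annotated start, matched 34 of the 37 genes. Motifs were searched on both strands, CCGGAAG for ETS factors such as Gabpa, GCATGCGC for Nrf1 and TCAAGGTCA for Esrra and its relatives. The ETS motif was in 7 of 34 promoters, 20.6%, and in 8.75% of all 33469 promoters. The Nrf1 motif was in 3 of 34, 8.82%, and in 2.47% of all, and TCAAGGTCA was in 0 of 34 and in 0.433% of all. Median GC content was 56.8% in these promoters and 51.7% in all.

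Each line gives a promoter in the direction of the gene, with capitals at the motif: Ndufs1 with the ETS motif on the opposite strand (read here as CTTCCGG, chr9:72073556-72073855, minus strand), Ndufaf1 with the ETS motif before and after the start (chr3:127103971-127104270, minus strand), Ndufa1 with it on each strand (chrX:121293506-121293805, minus strand) and Ndufaf4 with overlapping Nrf1 motifs on both strands (chr5:43401545-43401844, plus strand).
Ndufs1: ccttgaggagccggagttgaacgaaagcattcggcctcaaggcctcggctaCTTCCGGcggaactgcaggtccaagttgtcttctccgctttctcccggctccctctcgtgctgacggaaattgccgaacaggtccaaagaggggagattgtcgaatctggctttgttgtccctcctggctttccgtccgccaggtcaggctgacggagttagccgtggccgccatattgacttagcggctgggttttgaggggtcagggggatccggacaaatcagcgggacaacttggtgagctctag
Ndufaf1: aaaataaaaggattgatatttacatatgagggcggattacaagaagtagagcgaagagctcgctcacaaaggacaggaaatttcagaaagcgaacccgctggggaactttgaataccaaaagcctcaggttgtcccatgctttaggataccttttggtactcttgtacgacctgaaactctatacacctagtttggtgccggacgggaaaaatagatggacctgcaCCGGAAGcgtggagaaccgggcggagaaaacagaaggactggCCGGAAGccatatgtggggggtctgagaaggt
Ndufa1: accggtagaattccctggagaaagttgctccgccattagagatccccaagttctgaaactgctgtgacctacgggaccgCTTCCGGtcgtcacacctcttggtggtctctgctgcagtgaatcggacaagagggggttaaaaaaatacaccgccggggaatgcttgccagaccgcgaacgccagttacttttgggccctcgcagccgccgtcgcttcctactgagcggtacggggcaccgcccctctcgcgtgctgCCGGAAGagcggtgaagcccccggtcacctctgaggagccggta
Ndufaf4: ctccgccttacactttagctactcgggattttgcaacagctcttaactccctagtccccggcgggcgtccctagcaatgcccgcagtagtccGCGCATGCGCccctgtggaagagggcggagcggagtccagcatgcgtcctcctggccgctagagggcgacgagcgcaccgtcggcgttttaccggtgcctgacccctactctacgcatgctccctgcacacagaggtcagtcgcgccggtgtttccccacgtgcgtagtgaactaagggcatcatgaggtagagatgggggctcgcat

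Subunits were divided by the ETS motif and, apart from that, by the Nrf1 motif, as a description. The 6 with the ETS motif had a median leucine minus casein difference of 0.15 and a median difference between the second and the first casein array of -0.87. The 24 matched subunits without it had medians of 0.18 and -0.30. Among the 6, the difference between the casein arrays ran from -0.18 for Ndufs8 to -1.32 for Ndufa1. For the Nrf1 motif the same medians were 0.03 and -0.33 in the 2 subunits with it, and 0.17 and -0.46 in the 28 without. A match of letters is not a site of binding, and no factor was measured on these promoters.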

How the data were processed

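The 6 arrays (Rat Gene 1.0 ST, total RNA labelled with biotin, per the labels' protocols) were used as the table of values that the authors deposited, with 29214 probe sets. These deposited values are on a log2 scale, as their range from 1.14 to 13.7 and like array medians of 3.46 to 3.56 show. The submitters' processing notes name Affymetrix Expression Console; its version and the normalization are not given in the sources used here. Arrays carry no counts, and 2 per diet limit the precision.

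Rows were named from the platform annotation: 15310 had 1 gene, 323 several, and the remainder none. Symbols were updated through RefSeq gene identifiers, and no Nduf symbol differed. One row per gene left 14506 genes. limma 3.58.1 in R 4.3.3 (lmFit and eBayes, diet only, 3 residual degrees of freedom) was fitted over all of them, with Benjamini-Hochberg adjustment and a threshold of 0.05. It was tested on simulated data. The genes named are the 6 lowest unadjusted p per comparison, the Ndufaf genes, the 5 highest and 5 lowest signals, plus further examples chosen after their values were seen. The members and gene lists were chosen with earlier results of these data known. The labels do not say that arrays of the same number are paired, and the fit did not pair them. Differences between the first and second array of a diet correlated between diets at 0.05 to 0.18, which cannot exclude pairing. Alternatives left out each array or changed the scaling, the filter, the rows or the fit.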

Additional observations from a re-analysis of the deposited data

How the results depend on the processing

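Across the alternatives tried, no complex I gene passed an adjusted p of 0.05 in limma, and the lowest adjusted p of any of the 37 genes lay between 0.125 and 0.542. Leaving out single arrays moved the results most. Over all genes, 0 to 1 passed the threshold for leucine against casein and 0 to 1 for dairy against casein, the 1 in both being without the first casein array. The number of complex I genes with an unadjusted p under 0.05 ranged from 2 to 20 for leucine against casein, 1 to 18 for dairy against casein and 1 to 7 for leucine against dairy, with 20 and 18 without the first casein array. The share of all genes with such a p without the first casein array is not given here. The counts in that setting therefore have no background beside them. In it 29 of 32 subunits were higher on leucine than on casein, with a median of 0.51. Of the genes above the median gene 57.8% were, with a median of 0.06. For dairy minus casein 29 of 32 subunits were higher with a median of 0.43, and 65.8% of those genes with a median of 0.10. The subunit median ranged from -0.061 to 0.51 for leucine minus casein and from -0.0051 to 0.43 for dairy minus casein. In both, the low end was without the second casein array and the high end without the first. The assembly factor median ranged from -0.19 to 0.26 for dairy minus casein and from 0.25 to 0.53 for leucine minus dairy.

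Of the other settings, subtracting array medians gave 2 genes with an unadjusted p under 0.05 for dairy against casein and 5 for leucine against dairy, in place of 1 and 3. It moved the median of all genes by 0.10 for leucine minus casein and left 30 of 32 subunits higher, with a median of 0.26, where quantile normalization gave 24 of 32 and 0.08. The replicate number as a block gave 2 for dairy against casein. The share of all genes with such a p in these settings is not given here. With array medians subtracted, 73.9% of the genes above the median gene were higher on dairy than on casein, in place of 70.5%. For leucine against dairy it was 59.0%, in place of 43.1%. The remaining 174 alternatives for the counts and medians moved a count by less than 1.5 times, or a median by less than a limit. That limit was 0.18 for subunits and 0.13 for assembly factors, the spread between arrays of a diet. For subunits it exceeds every median with all arrays, so a median that fell to 0 would stay within it. With quantile normalization 24 of 32 subunits were higher on dairy than on casein, with a median of 0.05. On the deposited values these were 31 of 32 and 0.17. All 234 alternatives for the genes with the lowest unadjusted p in each comparison kept their direction and side of the threshold. Those genes were picked by p in the same data, which favours a stable direction. Other genes described above did not all keep it. Leucine minus casein for Ndufv1 was 0.12 with all arrays and -0.27 without the second casein array. The cause of these shifts was not tested.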

Other observations

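A second row was measured for 4 of the genes. Leucine minus casein was 0.40 and 0.50 in the 2 rows of Ndufb4, 0.16 and 0.11 in those of Ndufs5, 0.28 and 0.24 in those of Ndufs6-ps1, and 0.01 and -0.07 in those of Ndufv3. For Ndufv3, dairy minus casein was 0.14 and 0.36 and leucine minus dairy -0.13 and -0.43. The same deposited value on 2 arrays occurred in 6 of the 37 complex I genes, 16.2%, which were Ndufv2, Ndufab1, Ndufs8, Ndufa11, Ndufa10 and Ndufa7. It occurred in 60.5% of all genes with varying values. The reason for the equal values was not tested.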
